A study of Homo sapiens with 6 samples.

Results

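Estrogen receptor and luminal genes were examined in MDA-MB-231, an established human breast cancer cell line that the labels call ER-negative. The set holds 10 genes, ESR1, PGR, GATA3, FOXA1, XBP1, AGR2, CA12, PDZK1, NAT1 and TFF1. Its members are all 30 probe sets that the platform annotation assigns to exactly 1 of these symbols, out of 54675 probe sets on each array and 10 of 19775 genes named there. One group of cells was transfected with an siRNA directed at LSD1 (3 arrays) and the other with a control siRNA (3 arrays). LSD1, encoded by KDM1A, is a demethylase of histone H3. Both groups are the same line, were transfected in 2 rounds and gave total RNA after 6 days, and the series describes the 3 arrays of each group as biological replicates. All results therefore come from 1 cell line and 1 time point, and the number of different siRNAs is not given in the sources used here. The comparison asks which of these transcripts differ when LSD1 is depleted.

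ESR1 encodes the estrogen receptor alpha, a nuclear receptor that binds estrogen and then switches on genes with estrogen response elements. FOXA1 opens chromatin for the receptor, GATA3 works with both in luminal cells of the breast, and PGR and TFF1 are classic targets of the receptor. XBP1, AGR2, CA12, PDZK1 and NAT1 are typically high in receptor-positive luminal tumours, and lines such as MDA-MB-231, with a basal and mesenchymal-like profile, usually have little ESR1 RNA.

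The siRNA reached its target. KDM1A gave signals of 291, 184 and 228 in LSD1 siRNA cells, against 2540.1, 2493 and 2295 in control siRNA cells, a log2 change of -3.32 (limma adjusted p = 1.46e-08). Signals are linear MAS5 values, whose trimmed mean is 500.1 on every array. Changes are differences of log2(signal + 15) between LSD1 siRNA and control siRNA cells, which understates the change of dim probe sets. Of the probe sets with 1 gene symbol, 27079 had a mean above the filter, which corresponds to a signal of 28.1 (the 40th percentile), and were tested with limma. Correlations of log2 values were between 0.983 and 0.986 within groups and between 0.963 and 0.970 across groups. The ACTB 3' to 5' signal ratio, a sign of RNA integrity, was 1.33 to 1.39 in LSD1 siRNA cells and 1.33 to 1.74 in control siRNA cells. All 6 basal and mesenchymal-like markers and all 6 luminal epithelial markers listed for the line were above the filter, and their summed signals overlapped between groups (96641 to 105077 and 24563 to 26667 with LSD1 siRNA, 98086 to 108775 and 25716 to 31219 with control siRNA). The summed signals of the leukocyte markers (183 to 315 with LSD1 siRNA, 235 to 269 with control siRNA) overlapped as well. Those of the fibroblast markers were 142 to 233 with LSD1 siRNA and 77.6 to 118 with control siRNA, where LUM, below the filter, gave 86.3 to 101 with LSD1 siRNA and 0.518 to 4.58 with control siRNA. Those of the endothelial markers were 169 to 174 with LSD1 siRNA and 179 to 217 with control siRNA, and their part in the results was not tested.

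Of the 30 member probe sets, 20 passed the filter, with at least 1 for each of the 10 genes. Of these 20, 11 rose, 9 did not pass the test and 0 fell, while 1, a PGR set, was lower at an unadjusted p under 0.05. The 11 belong to 6 genes: AGR2, PDZK1, CA12, TFF1, NAT1 and XBP1. Across all probe sets tested 34.4% passed, 17.0% upward and 17.4% downward. The median log2 change was 0.44 over the 20 member sets and -0.02 over all sets tested. The LSD1 siRNA arrays lay wholly above the control arrays for the same 11 sets, and for 22.5% of all sets tested. For each single set an exact permutation test of 3 against 3 arrays cannot go below p = 0.1. Of the 20 sets, 3 passed the filter only through their brighter group (1 each of ESR1, PGR and CA12), and none of these 3 passed the test. In bulk RNA, a change in the share of cells that express a gene and a change in RNA per cell cannot be told apart.

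**Figure D1:**
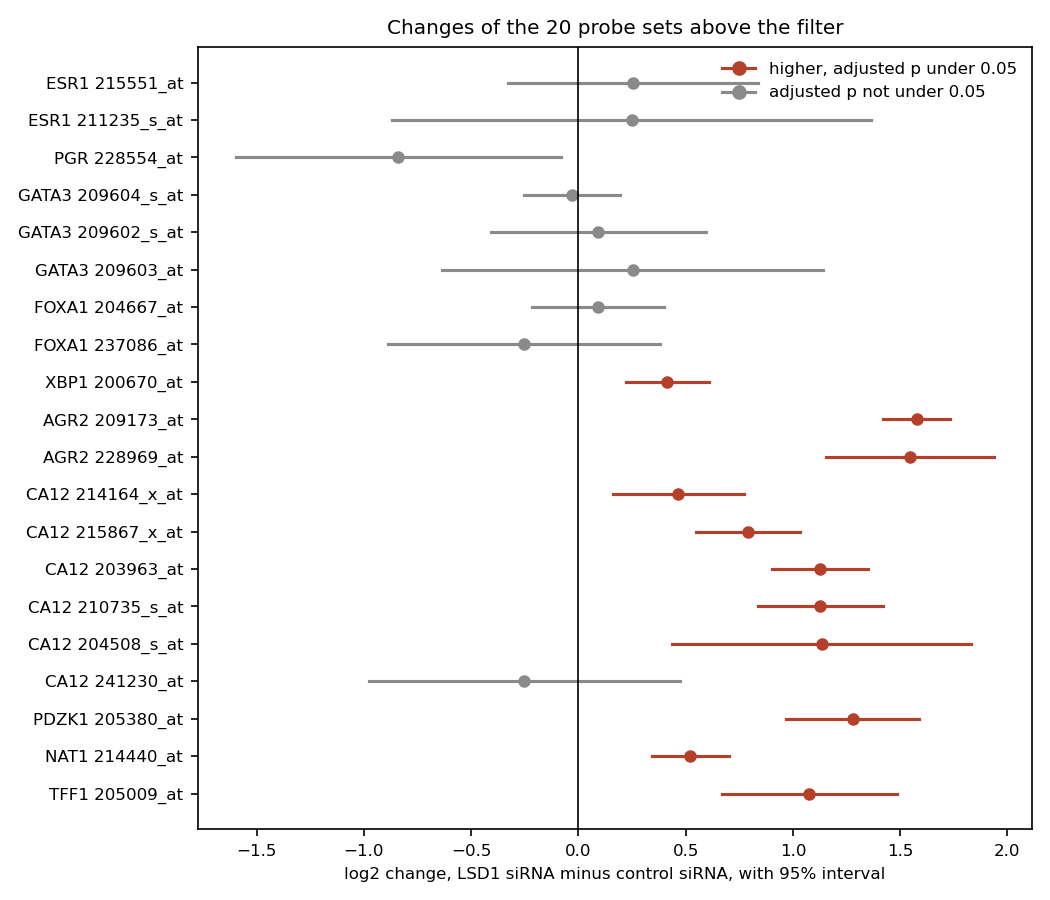
Log2 change (LSD1 siRNA minus control siRNA) of the 20 member probe sets above the filter, as points with 95% intervals from limma. The 11 red sets, of AGR2, CA12, PDZK1, NAT1, TFF1 and XBP1, lie wholly above 0. The grey sets of ESR1, GATA3, FOXA1 and CA12 have intervals that include 0. That of the grey PGR set, -1.60 to -0.08, lies below 0, with a limma adjusted p of 0.0833.

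AGR2 showed the highest rise of the members. It encodes a protein disulfide isomerase of the endoplasmic reticulum that helps to fold secreted mucins and is induced by estrogen in breast cancer cells. Set 209173_at gave signals of 4609.8, 4138 and 4170.2 in LSD1 siRNA cells, against 1423, 1355 and 1523 in control siRNA cells. The groups were far apart with no overlap, and the log2 change of 1.58 had a 95% interval of 1.42 to 1.73 (limma adjusted p = 3.91e-08). The other set, 228969_at, gave 216, 201 and 207 with LSD1 siRNA, against 67.6, 51.8 and 65.5 with control siRNA. Its log2 change of 1.55 (SE 0.18) differed from that of the first set by -0.03, with overlapping per-array differences (exact permutation p = 0.8, 0.889 after adjustment over the 10 pairs of probe sets compared). Among the 27079 sets tested the AGR2 sets held ranks 188 and 205 by size of rise. AGR3, the neighbouring relative of AGR2, was below the filter, with mean signals of 13.1 ± 7.11 with LSD1 siRNA and 17.5 ± 16.9 with control siRNA (SD, n = 3 each).

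PDZK1 encodes a scaffold with PDZ domains that anchors membrane transporters and is a known estrogen-induced gene. Its 1 probe set gave signals of 321, 337 and 374 in LSD1 siRNA cells, against 116, 138 and 146 in control siRNA cells. All LSD1 siRNA arrays were higher, by 2.58-fold in mean signal, and the 95% interval of the log2 change (1.28) was 0.97 to 1.59 (limma adjusted p = 2.80e-05). TFF1 encodes a small secreted trefoil peptide of mucous epithelia and is the gene most often used to read estrogen receptor activity. It gave 300.0, 312 and 284 with LSD1 siRNA, against 177, 138 and 96.6 with control siRNA. The LSD1 siRNA arrays lay close together, the control arrays were more spread, and the groups did not overlap. Mean signals were 2.18-fold apart and the log2 change was 1.08, SE 0.19 (limma adjusted p = 7.67e-04).

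**Figure D2:**
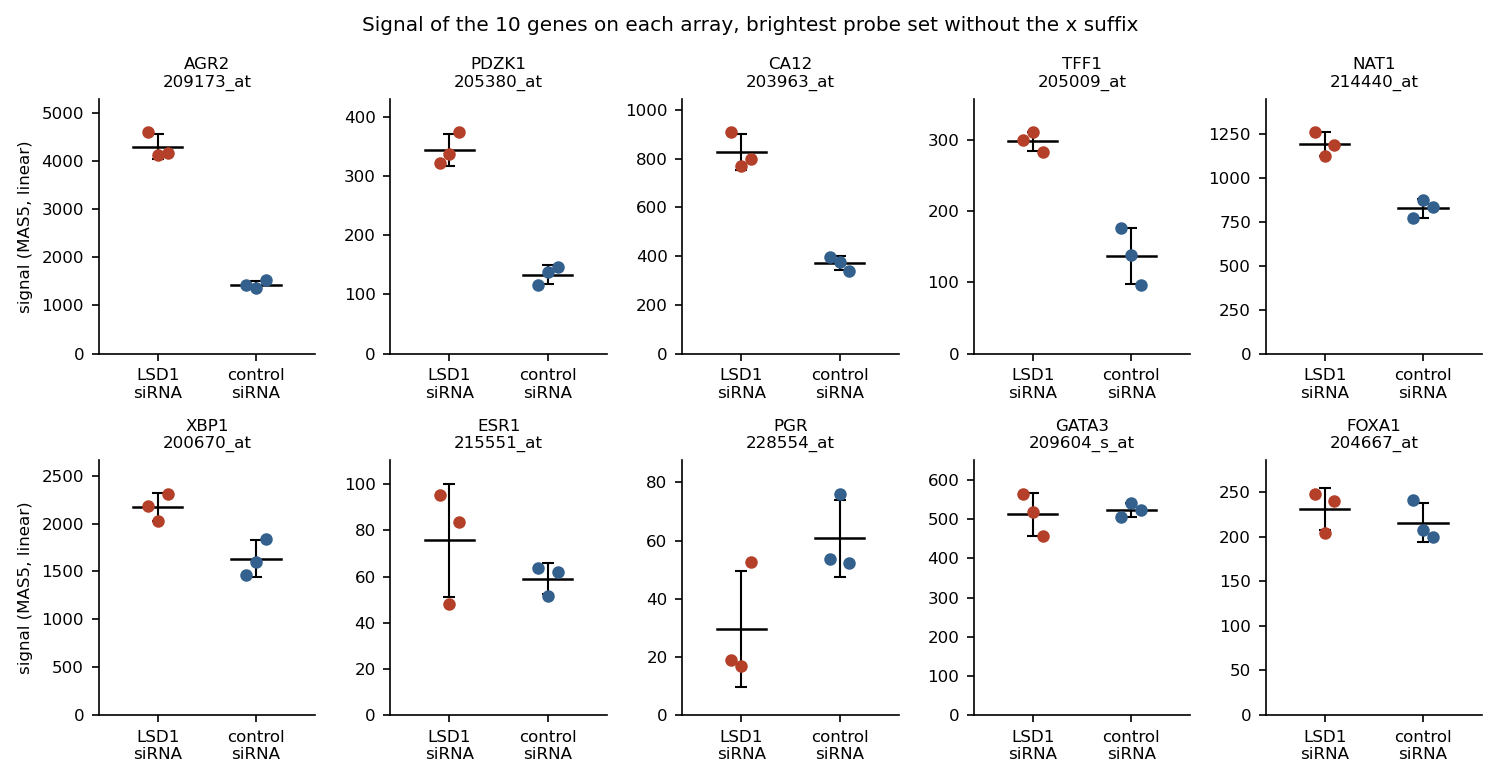
Signal (linear MAS5 units, each panel with its own axis from 0) of the probe set with the highest mean among those without the x suffix, for each of the 10 genes. Points are arrays, bars are the mean and SD of 3 arrays, and the groups are separated for AGR2, PDZK1, CA12, TFF1, NAT1 and XBP1 but overlap for ESR1, PGR, GATA3 and FOXA1.

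NAT1 and XBP1 rose by less. NAT1 encodes an arylamine N-acetyltransferase, and its set gave 1264, 1129.7 and 1191 in LSD1 siRNA cells, against 773, 877 and 834 in control siRNA cells. The groups were apart by 1.44-fold in mean signal, with a log2 change of 0.52, SE 0.08 (limma adjusted p = 3.72e-04). XBP1 encodes a transcription factor of the unfolded protein response that is also an estrogen target. Its set 200670_at gave 2188, 2026 and 2313 with LSD1 siRNA, against 1463, 1595 and 1842 with control siRNA. The highest control array came near the lowest LSD1 siRNA array, and the change was 0.41, SE 0.09 (limma adjusted p = 0.00332, and 0.0714 in the unmoderated test). The other XBP1 set, 242021_at, was below the filter, with 47.7, 38.3 and 30.9 in LSD1 siRNA cells against 36.6, 4.29 and 6.89 in control siRNA cells, and these groups overlap.

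CA12 encodes a membrane-bound carbonic anhydrase that faces the outside of the cell and is controlled by the estrogen receptor through a distant enhancer. Of its 7 probe sets 6 passed the filter, and 5 of these rose. Set 203963_at gave 909, 769 and 801 with LSD1 siRNA, against 395, 377 and 339 with control siRNA, a log2 change of 1.13, SE 0.10 (limma adjusted p = 5.91e-06). Set 210735_s_at also changed by 1.13, from signals of 353, 441 and 391 with LSD1 siRNA and 154, 179 and 183 with control siRNA. In both sets every LSD1 siRNA array was far above the control arrays. Set 204508_s_at had a similar change of 1.13, but one LSD1 siRNA array (148) came close to the highest control array (137). Its adjusted p of 0.0158 became 0.0632, 0.0682 and 0.0525 without LSD1 siRNA replicate 1, LSD1 siRNA replicate 2 and control replicate 1.

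The pair of CA12 sets with the x suffix, which marks probes that may match other transcripts, changed by less. Set 215867_x_at gave 876, 841 and 721 with LSD1 siRNA, against 521, 410.4 and 463 with control siRNA, a change of 0.79. Set 214164_x_at gave 736, 651 and 819 with LSD1 siRNA, against 537, 643 and 422 with control siRNA, a change of 0.47 (limma adjusted p = 0.0220). Its groups are close to touching, and its adjusted p was 0.0567 without LSD1 siRNA replicate 1, 0.0909 without LSD1 siRNA replicate 3 and 0.0691 without control replicate 3. The change of 203963_at exceeded that of 214164_x_at by 0.66, with per-array differences that did not overlap (exact permutation p = 0.1, the smallest possible, 0.5 after adjustment over the 10 pairs). That of 210735_s_at exceeded it by 0.66 too, with the same p. Cross-matching of the x sets was not tested. Set 241230_at had a value of -0.25 (95% interval -0.98 to 0.47, limma adjusted p = 0.608), from signals of 18.7 to 33.3 with LSD1 siRNA and 26.9 to 36.5 with control siRNA. Set 204509_at was below the filter, at 3.70 to 27.1 with LSD1 siRNA and 6.08 to 39.1 with control siRNA.

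**Figure D3:**
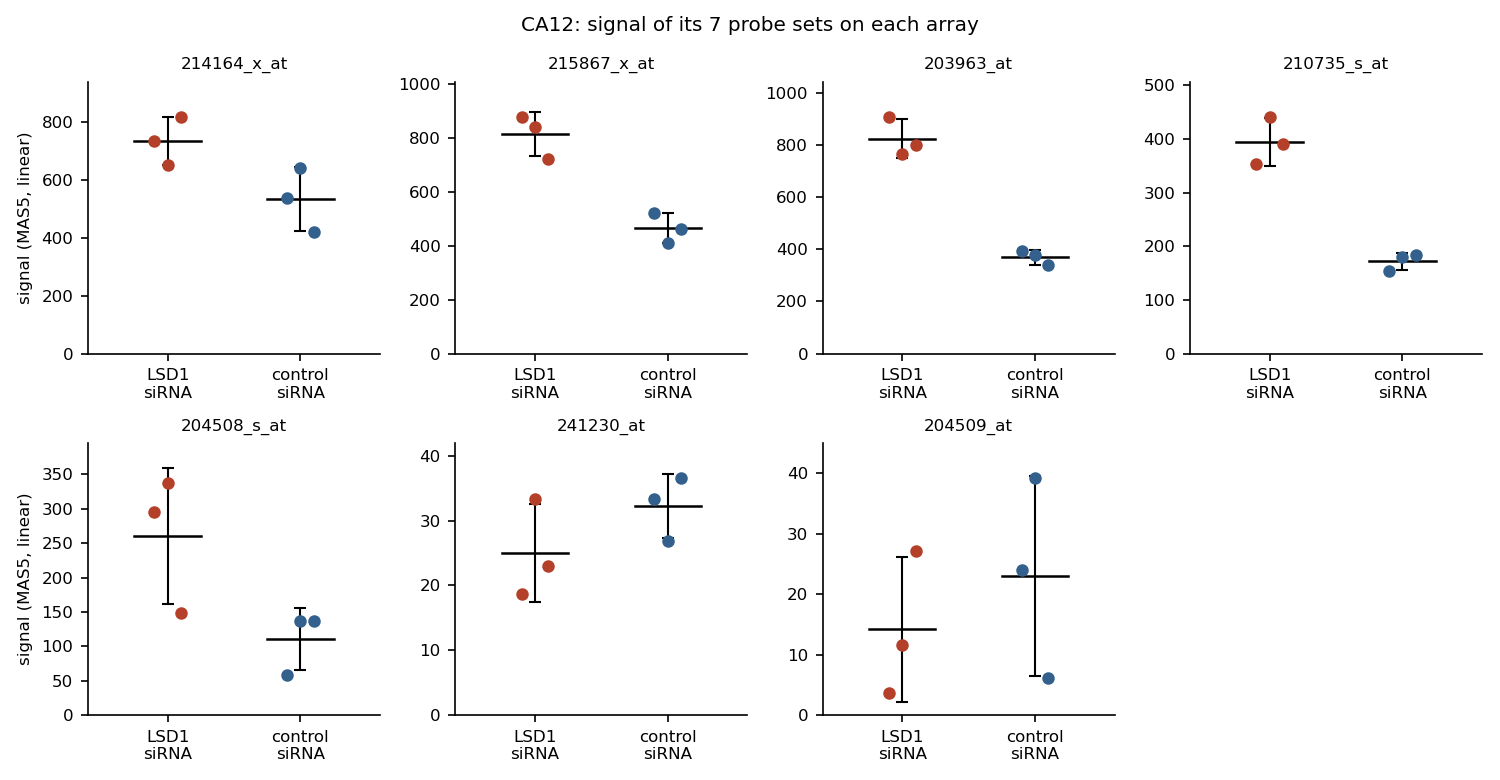
Signal (linear MAS5 units, each panel with its own axis from 0) of the 7 CA12 probe sets on each array, with mean and SD of 3 arrays. The LSD1 siRNA arrays lie above the control arrays in 5 panels, by 2.23-fold in mean signal for 203963_at and 1.38-fold for 214164_x_at, and overlap with them for 241230_at and 204509_at.

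The starts of rising members are shown so that their base composition and the letters of known binding motifs can be compared. The windows hold 250 bases before and 50 after a RefSeq gene start on GRCh38.p14, 5′ to 3′ on the gene's strand, and the table used here has 22 such windows for 8 of the 10 genes. Capitals mark matches, on either strand, to the arm GGTCA of the estrogen response element (TGACC on the other strand) or to the GATA letters AGATAA. FOXA1, which did not pass the test, follows the risers. The AGR2 window is chr7:16804950-16805249 on the minus strand, and the PDZK1 window is chr1:145707319-145707618 on the minus strand. The CA12 window is chr15:63381797-63382096, the XBP1 window is chr22:28800520-28800819 and the FOXA1 window is chr14:37595200-37595499, all on the minus strand.
AGR2: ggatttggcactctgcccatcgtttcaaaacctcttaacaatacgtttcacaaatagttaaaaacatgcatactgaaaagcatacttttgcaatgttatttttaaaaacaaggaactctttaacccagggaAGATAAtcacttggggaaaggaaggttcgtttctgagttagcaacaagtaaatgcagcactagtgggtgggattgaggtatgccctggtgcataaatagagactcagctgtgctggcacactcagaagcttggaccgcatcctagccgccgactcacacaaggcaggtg
PDZK1: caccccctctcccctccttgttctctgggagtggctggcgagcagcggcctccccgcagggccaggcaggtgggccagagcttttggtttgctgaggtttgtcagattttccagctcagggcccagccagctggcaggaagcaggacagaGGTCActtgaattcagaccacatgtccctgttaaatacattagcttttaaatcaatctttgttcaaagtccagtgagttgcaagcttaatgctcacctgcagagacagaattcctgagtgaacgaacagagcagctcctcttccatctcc
CA12: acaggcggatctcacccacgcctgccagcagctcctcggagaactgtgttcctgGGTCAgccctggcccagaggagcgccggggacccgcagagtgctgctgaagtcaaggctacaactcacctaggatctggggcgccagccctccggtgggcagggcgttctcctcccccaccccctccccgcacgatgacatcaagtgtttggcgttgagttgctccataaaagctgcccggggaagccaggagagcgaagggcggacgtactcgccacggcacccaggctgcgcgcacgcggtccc
XBP1: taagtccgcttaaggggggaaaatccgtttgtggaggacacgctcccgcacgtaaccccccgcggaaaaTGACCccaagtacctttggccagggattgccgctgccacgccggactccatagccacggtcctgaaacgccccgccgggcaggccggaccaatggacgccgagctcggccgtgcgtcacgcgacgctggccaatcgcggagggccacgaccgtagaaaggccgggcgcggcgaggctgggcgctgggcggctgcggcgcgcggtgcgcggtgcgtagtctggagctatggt
FOXA1: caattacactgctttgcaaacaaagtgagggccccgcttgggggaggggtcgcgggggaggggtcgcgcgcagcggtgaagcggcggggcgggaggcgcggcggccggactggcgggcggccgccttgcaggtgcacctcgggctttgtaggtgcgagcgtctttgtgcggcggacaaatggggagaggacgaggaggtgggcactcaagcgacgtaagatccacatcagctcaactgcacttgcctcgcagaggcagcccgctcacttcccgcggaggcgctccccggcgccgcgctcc

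These windows differ in base composition. AGR2 has a GC content of 43.7% with 6 CpG dinucleotides, and PDZK1 one of 53.3% with 4. The other 3 windows are richer, with 22 CpG dinucleotides in CA12, 40 in XBP1 and 34 in FOXA1. Over all 35116 windows in the table the median was 58.7% GC and 14 CpG dinucleotides, with 4 and 28 as quartiles, and the risers lie on both sides of it. NAT1 and TFF1 have no window here, so their starts were not searched. The full element GGTCANNNTGACC matched 0 of the 22 member windows and 0.057% of all windows. Its arm GGTCA, which every full element contains, matched 11 of the 22 member windows and 37.4% of all windows. The arm matched in CA12 (first base at -196 from the start), in both overlapping PDZK1 windows and in both XBP1 windows, and also in windows of ESR1, PGR and GATA3. The PGR windows that match overlap too, and in PGR as in PDZK1 the same site is counted in each. AGATAA matched 1 member window, that of AGR2 at -119, and 10.3% of all windows. The forkhead letters TGTTTAC and the XBP1 letters TGACGTGG matched 0 member windows, and 3.42% and 0.729% of all windows. The AP-1 letters TGANTCA matched 1 member window, of GATA3, and 7.71% of all windows.

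Neither tested probe set of the receptor gene itself passed. ESR1 has 9 probe sets, of which 7 were below the filter and were not tested, 205225_at among them. Set 215551_at gave 95.2, 48.0 and 83.9 in LSD1 siRNA cells, against 63.7, 51.5 and 62.2 in control siRNA cells. One LSD1 siRNA array lies below all control arrays, and the log2 value of 0.26 had a 95% interval of -0.33 to 0.84 (limma adjusted p = 0.509). Set 211235_s_at gave 36.1, 74.9 and 11.1 with LSD1 siRNA, against 12.4, 17.8 and 64.7 with control siRNA. The LSD1 siRNA arrays span the whole range and the control arrays lie within it, and its value of 0.25 had an interval of -0.87 to 1.36.

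Of the 7 dim ESR1 sets, 205225_at had the widest separation, with 36.6, 28.3 and 22.2 in LSD1 siRNA cells against 25.8, 1.24 and 3.73 in control siRNA cells. One control array lies inside the LSD1 siRNA range, and with no filter its value of 0.91 had an adjusted p of 0.132. The other 6 gave signals between 1.91 and 36.2 with LSD1 siRNA and between 2.11 and 40.1 with control siRNA, and their groups overlap. With no filter, 0 of the 10 dim member sets passed limma, and 2 had an unadjusted p under 0.05. These values give no level of ESR1 RNA, since signals this low carry no detection calls here. ESR2, the gene of estrogen receptor beta, was below the filter too, with mean signals of 25.6 ± 18.1 with LSD1 siRNA and 24.1 ± 3.97 with control siRNA (SD, n = 3 each).

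**Figure D4:**
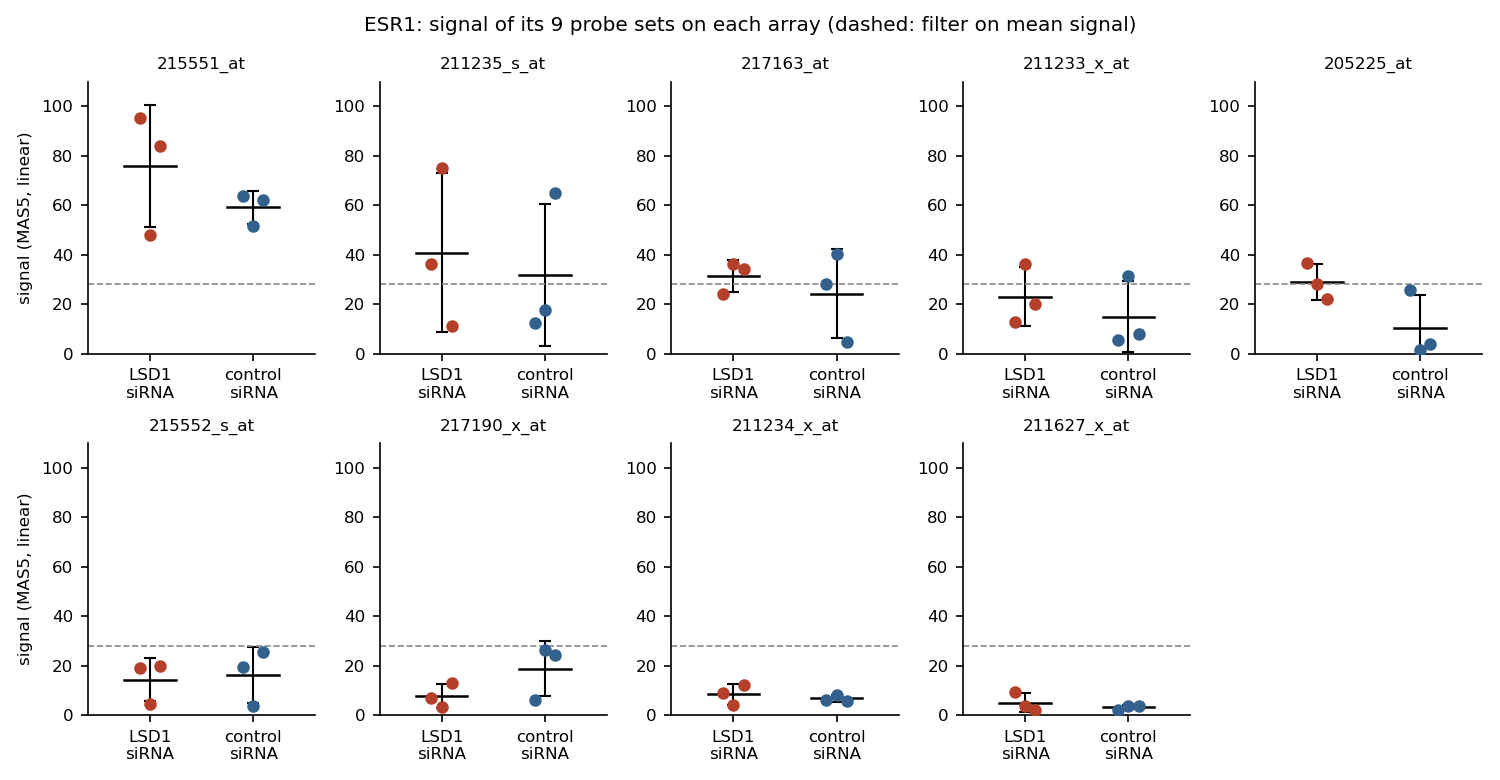
Signal (linear MAS5 units, all panels on one axis from 0) of the 9 ESR1 probe sets on each array, with mean and SD of 3 arrays. The dashed line is the filter on the mean log2 value, written as a signal of 28.1, and in every panel the LSD1 siRNA arrays overlap with the control arrays.

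PGR encodes the progesterone receptor. Set 228554_at gave 19.1, 17.0 and 52.5 in LSD1 siRNA cells, against 53.8, 76.1 and 52.2 in control siRNA cells. LSD1 siRNA replicates 1 and 2 are low, and replicate 3 reaches the control range. The log2 value was -0.84 with a 95% interval of -1.60 to -0.08 and a limma adjusted p of 0.0833. Leaving out LSD1 siRNA replicate 3, the array that reaches the control range, gave -1.18 (limma adjusted p = 0.0236). The set did not pass in the other 14 of the 15 alternatives run on it. Its value ran between -1.18 and -0.45 over all 15. It passed the filter only through the control group, so a fall of PGR is not established here. Set 208305_at was below the filter, with 5.38, 21.2 and 0.925 with LSD1 siRNA against 5.04, 29.2 and 33.3 with control siRNA.

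GATA3 and FOXA1 encode transcription factors that set the luminal programme of the breast. GATA3 set 209604_s_at gave 565, 519 and 456 with LSD1 siRNA, against 506, 541 and 523 with control siRNA. The groups overlap, and the 95% interval of the log2 value (-0.03) was -0.26 to 0.19. GATA3 sets 209602_s_at and 209603_at had values of 0.09 and 0.25, with wider intervals of -0.41 to 0.59 and -0.64 to 1.14. FOXA1 set 204667_at gave 249, 204 and 240.4 with LSD1 siRNA, against 241, 208 and 199.5 with control siRNA, and the interval of its value (0.09) was -0.22 to 0.40. Those arrays overlap as well. The dimmer FOXA1 set, 237086_at, had a value of -0.25 with an interval of -0.89 to 0.38. None of these intervals shows that a gene was unaltered. The narrowest, of GATA3 209604_s_at, ended at 0.19, below the smallest change among the member sets that rose (0.41).

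Other genes of the pathway moved in both directions. They were tested with 1 probe set per gene over 13822 genes, of which 19.8% rose and 21.3% fell, with a median of -0.02. Of 24 measured estrogen response genes outside the 10 members, 8 rose and 9 fell, with a median of -0.19. HSPB8, a small heat shock protein gene, rose by 1.47 and MREG, which encodes melanoregulin, by 0.83. SIAH2, a ubiquitin ligase gene induced by estrogen, fell by 1.19 on the log2 scale and the cyclin D1 gene CCND1 by 0.71. GREB1, which encodes a cofactor of the receptor and is one of its best known targets, gave 119, 96.2 and 90.8 with LSD1 siRNA, against 18.9, 37.1 and 48.8 with control siRNA. Its groups do not overlap, and it rose by 1.27 (limma adjusted p = 0.00390), or by 0.78 with a constant of 60. TFF3, a trefoil peptide gene like TFF1, had a value of 0.24 (limma adjusted p = 0.513). With the mean of all probe sets per gene, 5 of the list rose and 5 fell, and HSPB8 was at 0.83.

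Of 25 luminal marker genes 7 rose (28%) and 4 fell (16%), with a median of 0.08, against 19.8% and 21.3% over all genes tested. ELAPOR1, an estrogen-induced membrane protein gene, gave 716, 675 and 653 in LSD1 siRNA cells, against 74.4, 80.0 and 64.6 in control siRNA cells. The groups are far apart and the change was 2.99, or 1.26 averaged over its probe sets. ABAT, which encodes GABA transaminase, rose by 3.77 on dim control values (1.87 to 12.1), by 2.29 with a constant of 60 and by 2.32 averaged over its probe sets. Its control values lie below the filter, so it was tested, and counted among the 7, only through the LSD1 siRNA group. With a constant of 1 the highest-mean rule took another ABAT probe set, at 0.70 (limma adjusted p = 0.231), while the set given here was at 5.69 in the fit of all probe sets. TBC1D9 rose by 0.56 (0.22 averaged over its probe sets, limma adjusted p = 0.406) and the keratin gene KRT19 by 0.42. The 4 that fell were MYB (-0.95), EVL (-0.71), KRT18 (-0.45) and KRT8 (-0.25), a transcription factor, a regulator of actin and the main keratin pair of luminal cells. KRT8 had an adjusted p of 0.0504 without LSD1 siRNA replicate 3, and EVL, KRT18 and KRT8 lost the call in the unmoderated test. Averaged over their probe sets, MYB was at -0.38 (limma adjusted p = 0.148) and EVL at -0.61 (limma adjusted p = 0.114). With the mean of all probe sets per gene 4 rose and 2 fell.

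Of 17 basal and mesenchymal marker genes 4 rose (23.5%) and 3 fell (17.6%), with a median of -0.06. Over all genes tested 19.8% rose and 21.3% fell. SNAI2, a repressor of epithelial genes, rose by 0.92, the caveolin gene CAV2 by 0.76, the moesin gene MSN by 0.60 (0.27 averaged over its probe sets) and CDH3, which encodes P-cadherin, by 1.92. CDH3 gave a mean of 14.6 in control siRNA cells, below the filter, so it was tested, and counted among the 4, only through the LSD1 siRNA group. Its change rests on dim values and was 1.07 with a constant of 60. LYN (-0.99), a Src-family kinase gene, ID4 (-0.58) and EGFR (-0.25), the EGF receptor gene, fell. The lower count was 2 without LSD1 siRNA replicate 1, LSD1 siRNA replicate 2 or control replicate 2, where EGFR lost the call. EGFR lost it without control replicate 3 as well, and with a variance prior free of intensity. In the unmoderated test EGFR and ID4 lost it, and the lower count was 1. Averaged over their probe sets EGFR was at 0.11 and ID4 at -0.34 (limma adjusted p = 0.181). VIM had a value of -0.25 (limma adjusted p = 0.0665), which was -0.35 (limma adjusted p = 0.00637) without control replicate 3. KRT5, a basal keratin gene, was below the filter, at a mean of 13.7 with LSD1 siRNA and 20.2 with control siRNA. CDH3, ID4, MYB and EVL were named after their values were seen, as were the genes given below for any count of 5 or fewer.

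**Figure D5:**
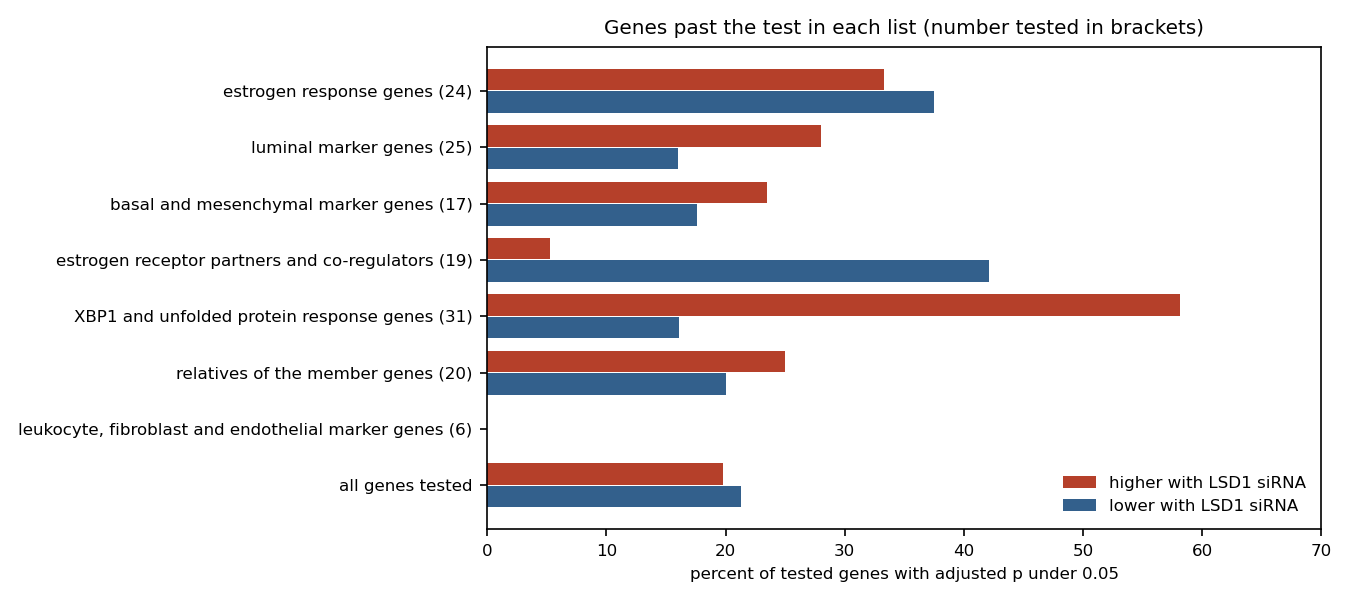
Percent of tested genes of each list that rose (red) or fell (blue) at an adjusted p under 0.05, with all 13822 genes in the lowest row. Of the XBP1 and unfolded protein response genes 58.1% rose, of the estrogen receptor partners 42.1% fell, and over all genes 19.8% rose and 21.3% fell.

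Partners and co-regulators of the estrogen receptor fell more often than they rose, with 1 higher and 8 lower of 19 and a median of -0.21. TFAP2A, an AP-2 transcription factor gene, fell by 1.08 (but was at -0.22 averaged over its probe sets, limma adjusted p = 0.542). The arginine methyltransferase gene PRMT1 fell by 0.66, SAFB, which encodes a scaffold attachment factor that represses the receptor, by 0.65 and SP1, a factor that tethers the receptor to GC-rich DNA, by 0.46. The 1 that rose was NRIP1 (0.22), a corepressor gene. It did not pass without LSD1 siRNA replicate 1, LSD1 siRNA replicate 3 or control replicate 1 (limma adjusted p = 0.0507, 0.0735 and 0.0562), where the higher count was 0. The count was 2 without control replicate 2.

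XBP1 acts with a wider response to unfolded protein in the endoplasmic reticulum. Of 31 genes of that response 18 rose and 5 fell, with a median of 0.25. The higher count was 13 with the mean of all probe sets per gene, 13 in the unmoderated test and between 15 and 17 without 1 array. Over all genes, 2153 rose with that mean and 2070 in the unmoderated test, against 2734. The stress sensor gene ERN1, whose enzyme splices XBP1 RNA, gave 802, 626 and 680.2 with LSD1 siRNA, against 247, 315 and 361 with control siRNA. All LSD1 siRNA arrays were higher and the change was 1.16, or 0.46 averaged over its probe sets. Without LSD1 siRNA replicate 1 the highest-mean rule took another ERN1 probe set, at 0.48, while the set given here was at 1.06 in the fit of all probe sets. DNAJB9, a chaperone gene and XBP1 target, rose by 1.02, SEC24D, which encodes a coat protein of vesicles leaving the endoplasmic reticulum, by 1.32 (0.56 averaged over its probe sets), and EDEM2, of the degradation of misfolded glycoproteins, by 0.72. SDF2L1 (-0.55), CALR (-0.30), DDIT3 (-0.28), ATF4 (-0.18) and PDIA6 (-0.16) fell. Averaged over its probe sets CALR was at -0.051 (limma adjusted p = 0.555). ATF4 and DDIT3 encode factors of the PERK arm of this response, and the other 3 encode chaperones or folding enzymes. The lower count was 3, 3 and 1 without LSD1 siRNA replicates 1, 2 and 3, 1 and 3 without control replicates 2 and 3, and 2 with no filter or with median centring. It was 1 with a variance prior free of intensity and 1 in the unmoderated test. Of the 5 that fell, only SDF2L1 kept the call under every alternative, and ATF4 lost it without any 1 array other than control replicate 3. Spliced and unspliced XBP1 RNA were not told apart here.

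Among 20 relatives of the members, 5 rose (25%) and 4 fell (20%), with a median of 0.09. These shares are near the 19.8% and 21.3% over all genes tested. PDZK1IP1, which encodes a small membrane protein that binds PDZK1, gave 471, 568 and 449 with LSD1 siRNA, against 83.0, 82.5 and 36.4 with control siRNA. All LSD1 siRNA arrays were higher, with a change of 2.69 (limma adjusted p = 3.77e-06). TFF2, a trefoil peptide gene like TFF1, rose by 1.25, and the carbonic anhydrase gene CA13 by 0.95 and its relative CA8 by 0.85. NHERF2, a PDZ scaffold gene like PDZK1, rose by 0.63 (limma adjusted p = 0.0493), and lost the call when any 1 of LSD1 siRNA replicates 1, 2 and 3 and control replicates 1 and 2 was left out. CREB3L4 (-0.83), GATA2 (-0.65), FOXA2 (-0.42) and NR3C1 (-0.21), all genes of transcription factors and the last that of the glucocorticoid receptor, fell. Averaged over their probe sets GATA2 was at -0.33 and NR3C1 at -0.38. The NR3C1 groups overlap, and NR3C1 lost the call without LSD1 siRNA replicate 1 or 3 and without control replicate 2 or 3. No filter, median centring, a variance prior free of intensity and the unmoderated test each took it away as well. GATA2 lost the call without control replicate 2 and with a variance prior free of intensity. In the unmoderated test GATA2 and FOXA2 lost it, as did CA8 and NHERF2 (adjusted p = 0.0840 and 0.0699). The lower count was 2 without control replicate 2. NAT2, the close relative of NAT1, was below the filter, at mean signals of 3.61 with LSD1 siRNA and 4.73 with control siRNA. Of 6 leukocyte, fibroblast and endothelial marker genes above the filter, 0 rose and 0 fell in limma, and 0 had an unadjusted p under 0.05. LUM, whose signals are given above, was below the filter and is not among these 6. The higher count was 1 with no filter, with a constant of 60 or with the mean of all probe sets per gene. It was 2 when any 1 control array was left out.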

How the data were processed

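Signal intensity values of 6 arrays were deposited on a linear scale. The submitters' processing notes name MAS5, GCOS and Affymetrix Expression Console 1.1 as the authors' tools, with 2.5 ug of total RNA labelled per array per the labels, and the equal trimmed means (2% off each end) show a common scaling. Scaling hides any difference in total RNA per cell. Names came from the platform annotation (41097 probe sets with 1 symbol, 1801 with several, 11777 not listed), matched by gene identifier to RefSeq for 41043. Here log2(signal + 15) was computed, probe sets without exactly 1 symbol and 62 control sets were dropped, and sets above the 40th percentile of mean log2 value were tested with limma 3.58.1 (R 4.3.3), with an intensity trend, no covariate, two-sided, Benjamini-Hochberg adjusted over all sets at 0.05. Gene counts used each gene's highest-mean set, x-suffix sets only where there was no other. The fit was tested on simulated data. The genes, lists and rules were chosen with earlier results of these data known. Of 178 list genes, 16 had no single-symbol set and 26 were below the filter. Named from each list were up to 4 genes with the smallest p past the threshold, and ESR2, AGR3, TFF3, GREB1, KRT8, KRT18, KRT5, EGFR, VIM, NAT2 and PDZK1IP1 whatever their result. Alternatives changed the constant (1, 60), filter, normalization, variance model, probe set rule, pairing and arrays used. Same-numbered arrays of the groups had deviations correlated at 0.04, 0.00 and 0.04, so the numbers were not used to pair them. Figures used matplotlib 3.10.9.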

Additional observations from a re-analysis of the deposited data

How the results depend on the processing

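Of the 11 member probe sets that rose, 8 stayed past the threshold under all 16 alternatives run on them, and the other 3 (XBP1 200670_at, CA12 214164_x_at and CA12 204508_s_at) kept their direction but lost the call under at least 1. The higher count was 8 in the unmoderated test, 9 with a variance prior free of intensity and between 9 and 11 without 1 array. The lower member count was 1, the PGR set, without LSD1 siRNA replicate 3 and 0 otherwise. Over all probe sets, 3132 fell in the unmoderated test, against 4703, and between 3913 and 4613 without 1 array. The sets that rose numbered 3117 in the unmoderated test, against 4607. They numbered 3796 with a variance prior free of intensity and between 3710 and 4665 without 1 array. With the replicate block 11 member sets rose and 0 fell, with 4733 higher and 4815 lower sets in all, and of the genes named ATF4, PDIA6 and NHERF2 lost the call with it. The cause of these losses was not tested. Signs turned only for values that never passed, apart from EGFR. Without LSD1 siRNA replicate 3, GATA3 209604_s_at was at 0.048 and 209602_s_at at -0.014. Without control replicate 1, ESR1 211235_s_at was at -0.052, GATA3 209602_s_at at -0.018 and 209603_at at -0.27. Over the single arrays left out, these sets ran between -0.10 and 0.048 (209604_s_at), -0.018 and 0.20 (209602_s_at), -0.27 and 0.52 (209603_at) and -0.052 and 0.71 (211235_s_at). EGFR was at 0.11 averaged over its probe sets. Of 45 other named genes, 25 kept direction and call under the alternatives run on them, 16 for 40 genes and 14 or 15 for ABAT, TFF3, GREB1, CDH3 and NHERF2, which were below the filter in the others. Signals near the filter limit what ESR1 and PGR can show.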
